A study of Mus musculus with 8 samples.

Results

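Transcripts of 37 genes that encode the presynaptic vesicle release machinery were read in 8 RNA-seq libraries of mouse brain. The 37 genes were set by name and matched by gene symbol. All 37 are among the 54532 genes listed for the PTS + RS and RS libraries and among the 28229 listed for the RGFP109 and vehicle libraries. All 37 also passed the filter on low counts, which left 17581 and 17565 genes to test.

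The mice were C57BL/6, male by the study's methods, and the brain was taken on Day 21. RS mice had restraint stress alone, and PTS + RS mice had photothrombotic stroke, a light-induced clot in vessels under the skull, plus restraint stress. All 4 libraries of these groups (2 in each) are labelled cortex. The study describes the tissue sequenced as damaged cortex, and in a figure legend as near the damage. The other 4 libraries came from PTS + RS mice given either RGFP109 (labelled HDAC3 inhibitor) or vehicle (labelled NaCl). The study's methods give DMSO, a cyclodextrin and sodium acetate as the diluent of RGFP109. Whether the mice labelled NaCl received that diluent is not stated. By the methods, RGFP109 was injected subcutaneously once a day for 2 weeks at 60 mg/kg. A figure legend of the study gives 21 consecutive days instead. The study describes RGFP109 as selective for both HDAC1 and HDAC3. In each of these groups replicate 1 is labelled cortex and replicate 2 amygdala. Neither the labels nor the study's methods say whether a library holds 1 mouse or a pool of mice, so p-values measure the spread between libraries. Each group has 2 libraries.

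Neurotransmitter leaves the nerve terminal when a synaptic vesicle fuses with the plasma membrane. SNARE proteins on both membranes zip together to drive the fusion, synaptotagmins couple it to calcium, and the active zone scaffold holds vesicles and calcium channels in place. After fusion, the vesicle membrane is retrieved by endocytosis and refilled with transmitter. Neurons carry most of these transcripts. In bulk tissue, fewer neurons and less RNA per neuron cannot be told apart.

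Promoter windows were looked up because RGFP109 acts on histone deacetylases. The RefSeq table (GRCm38.p6) holds windows of 250 bases before to 50 bases after a transcription start for 29 of the 37 members, 41 windows in all. The median GC content of these windows was 61%, against 52.7% over all 32851 windows. The median number of CpG per window was 18, against 7 over all windows. The GC box GGGCGG, read on both strands, was found in 58.5% of the members' windows and in 35.7% of all windows. This motif holds only G and C, and the shares were not adjusted for base composition or expression level. The cyclic AMP response element TGACGTCA, read on both strands, was found in 4.88% and 1.79%, with the members Napa and Syn1 holding it. The TATA box TATAAA, on both strands, was found in 4.88% and 13.6%, with Sv2b the member that holds it. These are matches of letters in a fixed window and not measured sites. The windows below were chosen after the values were seen. Vamp1 (chr6:125215331-125215630, plus strand), Syp (chrX:7638330-7638629, plus strand) and Sv2a (chr3:96180977-96181276, plus strand) had the smallest p-values for PTS + RS against RS among members with a window. Stx1a (chr5:135023232-135023531, plus strand) differed most between the labelled tissues within its role. Each line reads 5′ to 3′, spans the upstream region and the start of the first exon, and has the GC box of either strand in capitals.
Vamp1: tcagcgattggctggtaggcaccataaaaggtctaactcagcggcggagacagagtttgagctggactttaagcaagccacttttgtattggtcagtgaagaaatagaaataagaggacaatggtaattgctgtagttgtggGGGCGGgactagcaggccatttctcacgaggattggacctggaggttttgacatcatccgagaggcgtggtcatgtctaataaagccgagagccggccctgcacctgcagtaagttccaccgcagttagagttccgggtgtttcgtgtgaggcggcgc
Syp: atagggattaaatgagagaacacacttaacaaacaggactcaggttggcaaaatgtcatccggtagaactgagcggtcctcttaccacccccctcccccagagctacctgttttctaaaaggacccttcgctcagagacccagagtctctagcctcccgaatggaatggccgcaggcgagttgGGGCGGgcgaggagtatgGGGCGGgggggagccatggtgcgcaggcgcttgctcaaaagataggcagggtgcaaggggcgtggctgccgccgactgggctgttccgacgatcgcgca
Sv2a: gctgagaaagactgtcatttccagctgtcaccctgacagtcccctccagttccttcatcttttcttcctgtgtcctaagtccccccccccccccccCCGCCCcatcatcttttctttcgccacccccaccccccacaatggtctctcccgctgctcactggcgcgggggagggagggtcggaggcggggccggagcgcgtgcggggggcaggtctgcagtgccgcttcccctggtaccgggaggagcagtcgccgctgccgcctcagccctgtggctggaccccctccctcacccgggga
Stx1a: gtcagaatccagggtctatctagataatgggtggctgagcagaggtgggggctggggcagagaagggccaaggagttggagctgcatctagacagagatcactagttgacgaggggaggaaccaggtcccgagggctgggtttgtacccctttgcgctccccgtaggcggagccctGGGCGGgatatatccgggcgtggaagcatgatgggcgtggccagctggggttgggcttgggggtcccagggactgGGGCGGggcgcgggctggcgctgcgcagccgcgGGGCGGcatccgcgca
Vamp1 and Sv2a held 1 GC box each, Syp held 2 and Stx1a held 3, and no window of these held the cyclic AMP response element.

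Depth and library content touch every comparison. Each library held between 15902013 and 21712033 counts on genes, of which the members took between 1.63% and 1.95%. The least-counted member in any library was Slc17a8, at 8 counts in vehicle replicate 1, and the next was at 89 counts. Vehicle replicate 1 stood apart in cell content. The summed level of 10 olfactory bulb markers was 1184 CPM (counts scaled to a common library size by TMM) there and between 88.9 and 109.6 CPM in the other 7 libraries. S100a5, a calcium-binding protein of olfactory bulb afferents, had 1131 counts in vehicle replicate 1 and 0 counts in the other 7. Gad1, which makes GABA, was at 1572 CPM there and between 281 and 346 CPM elsewhere. The 10 markers of GABA neurons summed to 2878 CPM there and to between 769 and 948 CPM in the other 7. The summed level of 11 markers of cortical glutamatergic neurons was 741 CPM in that library, against 1404 to 1965 CPM in the other 7. Of 12 amygdala markers, 7 were above 0 and 5 below under the amygdala label, with a median log2 fold change of 0.06. None was called by edgeR, and 1 higher and 2 lower had an unadjusted p under 0.05. Their summed level was 376 and 371 CPM in the 2 amygdala-labelled libraries, 373 CPM in the cortex-labelled RGFP109 library and 909 CPM in vehicle replicate 1, of which Meis2 alone made 628 CPM. The amygdala-labelled pair held 1373 and 1514 CPM of 10 striatal markers, against 214 and 257 CPM in the cortex-labelled pair. RGFP109 replicate 1 held 1540.3 CPM of 10 choroid plexus markers, against 16.2 to 46.7 CPM in the other 3 libraries of its table, and its Ttr was at 1348 CPM against 1.36 to 1.88 CPM. Prox1 was at 90.2 CPM in that library and at 8.76 to 16.4 CPM in the other 3. In the separately scaled PTS + RS and RS libraries, Prox1 was at 108 to 159 CPM. Choroid plexus markers there summed to 50.1 CPM in PTS + RS replicate 2 and to 1656 to 3890 CPM in the others. The part that the content of vehicle replicate 1 or RGFP109 replicate 1 had in the results was not tested. The amygdala and cortex labels are used below as labels only. Over all 8 libraries the summed markers ranged from 282 to 376 CPM for endothelial cells, from 171 to 339.7 CPM for thalamus and from 3308 to 7972 CPM for oligodendrocytes.

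Per unit of gene length, the members spanned a range of levels within each library. FPKM, the fragment count divided by gene length and library size, was used to compare genes. In the PTS + RS and RS libraries, the highest mean over 4 libraries was that of Cplx2, a complexin that clamps and then promotes fusion, at 277 FPKM. Dnm1, the dynamin that cuts vesicles from the membrane, followed at 274 FPKM, and the libraries of both overlapped. Slc17a7 (VGLUT1, the main vesicular glutamate transporter of cortex) was at 238 FPKM and Vamp2, the main vesicle SNARE, at 236 FPKM, with overlapping libraries. The lowest were Slc17a8 (VGLUT3) at 1.37 FPKM and Syn3 at 0.983 FPKM. The median member lay at the 95.7th percentile of mean FPKM among tested genes. Levels were close between libraries there, with 35 of 37 members varying less than 1.5-fold from lowest to highest library. The exceptions were Slc17a6 (VGLUT2) at 2.33-fold and Syt2 at 1.89-fold. Among RGFP109 and vehicle libraries, 15 of 37 members varied less than 1.5-fold and 12 varied 2-fold or more. The order was led there by Vamp2 and Cplx1, both at 273 FPKM with overlapping libraries, and ended with Slc17a8 at 0.885 FPKM. The 2 tables were scaled separately, and levels were not tested between them.

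**Figure D1:**
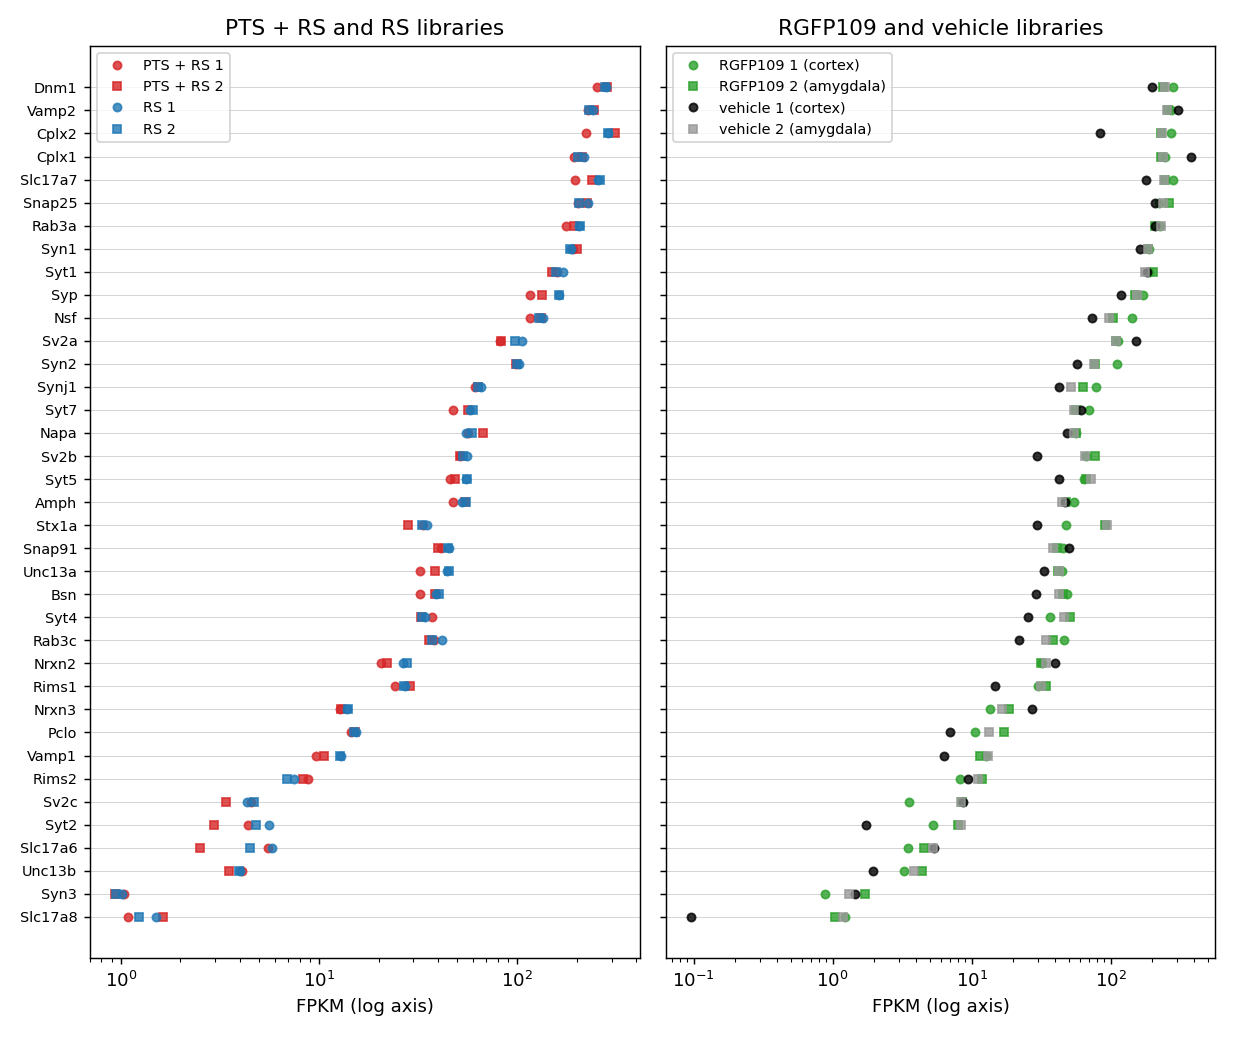
FPKM (log axis) of the 37 presynaptic genes in each library, ordered by mean level over 8 libraries, with one symbol per library. Libraries sit close together for PTS + RS and RS, and vehicle replicate 1 (black) lies away from the other 3 for many genes in the right panel, with Slc17a8 at 0.0953 FPKM.

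The comparison of PTS + RS with RS asks what stroke adds to restraint stress in the cortex. By the study's account, the PTS + RS cortex was taken at or near the damage. No member reached an adjusted p of 0.05 (edgeR quasi-likelihood fit, p-values adjusted by Benjamini-Hochberg over all tested genes). Of all tested genes, 3.55% did, 2.96% higher and 0.586% lower. DESeq2 called 2 members lower (1.07% of tested genes), Syp and Nrxn2, and limma-voom called 0. Without the filter on low counts, edgeR called 6 members lower (2.38%). Most members were lower in PTS + RS by a small amount: the log2 fold change was below 0 for 31 of 37 members, against 50.3% of all tested genes, and above 0 for 6, against 49.7%, with a median of -0.08 against -0.0015 over all tested genes. At an unadjusted p under 0.05, 7 members were lower (7.55% of all tested genes) and 1 was higher (10.3%). Both PTS + RS libraries lay below both RS libraries for 14 members (24.5% of all tested genes) and above them for 2 (25.7%). The 95% interval of the fold change lay within 2-fold either way for 36 of 37 members, Slc17a6 being the exception. The same held for 12656 of 17581 tested genes.

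Among the fusion proteins, Vamp1, the vesicle SNARE that stands in for Vamp2 in some neurons, had the smallest p. Its level was 99.5 and 108 CPM in the PTS + RS libraries and 133 and 129.8 CPM in the RS libraries. Both PTS + RS libraries were below both RS libraries. The log2 fold change was -0.34 ± 0.08 (SE), a level 0.790 times that of RS (95% interval 0.696 to 0.897), with an adjusted p of 0.0669 by edgeR. Vamp2 was at 873 and 936 CPM in PTS + RS and at 924 and 883 CPM in RS, and the groups overlapped. Its fold was 1.00 (95% interval 0.858 to 1.17). Vamp1 took 4.10% and 4.14% of the Vamp1 and Vamp2 FPKM in PTS + RS and 5.11% and 5.22% in RS, so the share did not overlap either. Snap25, a plasma membrane SNARE held there by lipid anchors, was at 1394 and 1536 CPM in PTS + RS and at 1556 and 1403 CPM in RS, with a fold of 0.990 (95% interval 0.828 to 1.18). Stx1a, its syntaxin partner, had a log2 fold change of -0.15 ± 0.10. Cplx2 was at 1104 and 1543 CPM in PTS + RS and at 1430.4 and 1421 CPM in RS. The PTS + RS libraries lay on both sides of the RS pair. Napa, the adaptor that brings the Nsf ATPase to spent SNARE complexes, was the member of this role with the highest log2 fold change, 0.11 ± 0.10, and Nsf was at -0.08 ± 0.10. The role median was -0.07 over 8 genes.

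Among the synaptotagmins, Syt2, a fast calcium sensor, differed most. It was at 34.0 and 22.7 CPM in PTS + RS and at 43.0 and 36.9 CPM in RS. Both PTS + RS libraries were lower, and they differed from each other by more than the RS pair did. The log2 fold change was -0.50 ± 0.19, with an adjusted p of 0.232 by edgeR, and without PTS + RS replicate 2 it was -0.24. Syt5 was at 109.7 and 116 CPM in PTS + RS and at 132 and 133 CPM in RS, without overlap, with a log2 fold change of -0.23 ± 0.07 and an adjusted p of 0.156 by edgeR. Syt1, the main sensor of cortical neurons, was at 1341 and 1257 CPM against 1424 and 1318 CPM, and its groups overlapped. Syt4, an atypical family member, had a log2 fold change of 0.05 ± 0.09, and Syt7, a slow high-affinity sensor, one of -0.18 ± 0.10.

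Of the vesicle proteins, Syp (synaptophysin, a tetraspan membrane protein of the vesicle) was at 614 and 698 CPM in PTS + RS and at 853 and 847 CPM in RS. The gap between the groups was wider than the gap within either. The log2 fold change was -0.37 ± 0.10, a level 0.772 times that of RS (95% interval 0.656 to 0.907), with an adjusted p of 0.102 by edgeR and 0.0131 by DESeq2. Sv2a, a vesicle glycoprotein that binds synaptotagmin, was at 384 and 388 CPM in PTS + RS and at 491 and 454 CPM in RS, also without overlap. Its log2 fold change was -0.29 ± 0.08 and its adjusted p 0.125 by edgeR. The synapsins, which tether vesicles in the reserve pool, differed less. Syn1 was at 639 and 662 CPM in PTS + RS and at 623 and 610.4 CPM in RS, higher in both PTS + RS libraries, with a log2 fold change of 0.08 ± 0.08. Syn2 had a log2 fold change of -0.02 ± 0.09. Syn3 had one of 0.02 ± 0.15 on 184 to 227 counts a library. Sv2b was at -0.08 ± 0.08 and Sv2c at -0.19 ± 0.15.

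At the active zone, Unc13a (Munc13-1, which primes vesicles for fusion) was at 414 and 487 CPM in PTS + RS and at 561 and 574 CPM in RS. Both PTS + RS libraries were lower. The log2 fold change was -0.33 ± 0.10 (fold 0.794, 95% interval 0.672 to 0.938) and the adjusted p 0.148 by edgeR. Rims2, a RIM scaffold protein that links Rab3 to Munc13, went the other way, at 92.3 and 86.4 CPM in PTS + RS and 78.3 and 72.2 CPM in RS. It was the single member with an unadjusted p under 0.05 that was higher, with a log2 fold change of 0.25 ± 0.08 and an adjusted p of 0.181 by edgeR. Rims1, its paralogue, was at -0.03 ± 0.10. The giant scaffold proteins Bsn (bassoon) and Pclo (piccolo) were at -0.17 ± 0.10 and -0.03 ± 0.08. The vesicle GTPases Rab3a and Rab3c were at -0.15 ± 0.09 and -0.09 ± 0.09, and Unc13b at -0.06 ± 0.09.

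Slc17a6 was at 30.4 and 13.6 CPM in PTS + RS and at 31.7 and 24.2 CPM in RS. The libraries overlapped, and PTS + RS replicate 2 alone was low. Its log2 fold change of -0.35 ± 0.33 became 0.12 without that library. Slc17a7 was at 1071 and 1298 CPM in PTS + RS and at 1383 and 1416 CPM in RS, without overlap. Its log2 fold change was -0.24 ± 0.12 and its adjusted p 0.352 by edgeR. All 4 endocytosis genes lay between -0.15 and -0.05. Snap91 (AP180, a clathrin adaptor) was the largest at -0.15 ± 0.08, with 379 and 367 CPM in PTS + RS and 416 and 409 CPM in RS. Dnm1, the phosphatase Synj1, and Amph, which recruits dynamin, were at -0.05 ± 0.10, -0.05 ± 0.08 and -0.08 ± 0.09. Of the neurexins, presynaptic adhesion proteins, Nrxn2 was at 288 and 307 CPM in PTS + RS and at 369 and 384 CPM in RS, without overlap. Its log2 fold change was -0.34 ± 0.08 (fold 0.790, 95% interval 0.693 to 0.899), with an adjusted p of 0.0710 by edgeR and 0.0295 by DESeq2. Nrxn3 was at 163 and 164 CPM in PTS + RS and at 176 and 178 CPM in RS, without overlap, with a log2 fold change of -0.11 ± 0.07.

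**Figure D2:**
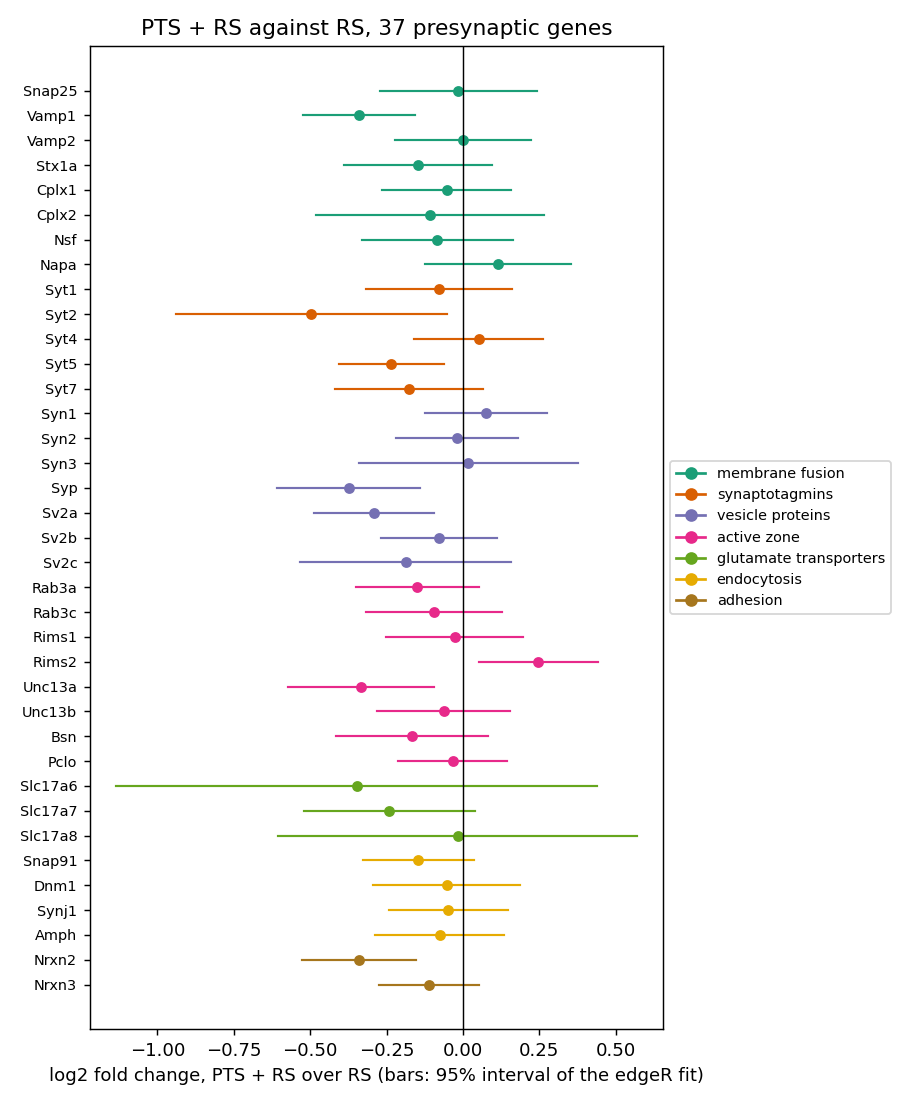
Log2 fold change of PTS + RS over RS for the 37 genes, coloured by role, with points from the edgeR fit and bars for its 95% interval (2 libraries in each group). Vamp1, Syp and Nrxn2 sit near -0.34 to -0.37 with bars below 0, Rims2 is at 0.25, and 31 of 37 points are left of 0.

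These calls depended on single libraries. Without PTS + RS replicate 1, 9 members were called lower (4.08% of tested genes) and 1, Napa, higher (5.6%). Without PTS + RS replicate 2, 11 were lower (7.74%) and 1, Rims2, higher (8.57%). Both of these fits use the same RS pair, and in each the lone PTS + RS library is assumed to vary like that pair. How many of all tested genes were called lower in both fits was not counted. Vamp1, Syp, Sv2a, Unc13a and Nrxn2 were called lower in both. Without either RS library, no member was called by edgeR.

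Values of other cell types moved with the same comparison. All 12 microglia markers were called higher in PTS + RS, and their summed level was 1631 and 1397 CPM against 356 and 323 CPM in RS. The summed level of 12 astrocyte markers was 8256 and 7058 CPM against 4890.4 and 4916 CPM, and 5 of the 12 were called higher by edgeR. Of 12 oligodendrocyte markers, 11 were above 0 and 1 was called higher, with a median of 0.22 and sums of 7108 and 7972 CPM against 6477 and 5849 CPM. Of 12 endothelial markers, 11 were above 0, with a median of 0.22 and sums of 376 and 333 CPM against 324 and 309.6 CPM. None of these was called by edgeR, and 2 higher and 1 lower had an unadjusted p under 0.05. The 12 general neuron markers had a median log2 fold change of -0.07, with 8 below 0, and none was called by edgeR (2 had an unadjusted p under 0.05). Of 11 cortical glutamatergic markers, 6 were above 0, with a median of 0.01 and sums of 1404 and 1618 CPM against 1671 and 1796 CPM. Of 10 markers of GABA neurons, 5 were above 0, with a median of -0.06. None of these 2 lists was called by edgeR. Of a wider set of 53 presynaptic genes that are no members, 52 were tested. Of these, 38 were below 0, with a median of -0.08, and none was called by edgeR at an adjusted p of 0.05, while 10 were lower and 1 higher at an unadjusted p under 0.05. The part of glial and endothelial RNA in the members' lower share was not tested. Choroid plexus markers summed to 50.1 CPM in PTS + RS replicate 2 and to 1656 to 3890 CPM in the other 3 libraries, and their part was not tested.

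RGFP109 was compared with vehicle to ask what this inhibitor does in PTS + RS mice. The comparison does not part HDAC3 from HDAC1, nor the drug from its diluent if the controls had NaCl alone. No member and no other gene passed an adjusted p of 0.05 by edgeR (0% of 17565 genes), and DESeq2 and limma-voom called 0 as well. At an unadjusted p under 0.05, 1 member was higher and 0 were lower, against 0.501% and 0.672% of tested genes. That member was Synj1, which strips phosphoinositides during vesicle uncoating, at 636 and 515 CPM with RGFP109 and 349 and 419.8 CPM with vehicle. Its groups did not overlap, the log2 fold change was 0.58 ± 0.22 and the adjusted p was 0.9997 by edgeR. The log2 fold change was above 0 for 26 of 37 members, against 47.4% of tested genes, and its median was 0.19, against -0.02 over all tested genes. It was 0.02 without vehicle replicate 1 and 0.39 without vehicle replicate 2. Intervals were wide: for 18 of 37 members the 95% interval lay within 2-fold, against 8761 of 17565 tested genes. The 2 libraries of each group carry different tissue labels, and this fit had no term for the label. The spread within a group therefore holds any difference between the labelled tissues. With the replicate number as a block, edgeR also called 0 genes.

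Vehicle replicate 1 was the lowest of the 4 libraries for 23 of 37 members and the highest for 8. Over all tested genes it was the lowest for 32.1% and the highest for 35.0%. Cplx2 was at 415 CPM there, against 1162 CPM in vehicle replicate 2 and 1346 and 1144 CPM with RGFP109. Its paralogue Cplx1 was at 832 CPM there, against 526 CPM in vehicle replicate 2 and 544 and 500.2 CPM with RGFP109. Cplx1 therefore took 81.9% of the Cplx1 and Cplx2 FPKM in that library and 47.6% to 50.5% in the other 3. The paralogues of other families went apart in the same library. Vamp1 took 2.01% of the Vamp1 and Vamp2 FPKM, against 4.21% to 4.96% in the other 3. Sv2a took 79.7% of the 3 Sv2 genes, against 56.0% to 61.9%. Syt2 took 0.953% of Syt1 and Syt2, against 2.71% to 4.49%. The members highest in vehicle replicate 1 were Vamp2, Cplx1, Sv2a, Sv2c, Slc17a6, Snap91, Nrxn2 and Nrxn3. The part of the olfactory bulb and GABA markers of that library in these values was not tested.

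Several members from different roles are given with their levels. For Cplx2, a complexin, the log2 fold change was 0.66 ± 0.52, with an adjusted p of 0.9997 by edgeR. Syt2 was at 40.5 and 60.7 CPM with RGFP109 and at 13.5 and 64.2 CPM with vehicle. The vehicle libraries lay on both sides of the RGFP109 pair, and the log2 fold change of 0.38 ± 0.73 turned to -0.35 without vehicle replicate 1. Sv2b was at 558 and 645 CPM against 253 and 549 CPM, without overlap (0.59 ± 0.41). Rab3c was at 553 and 466 CPM against 268 and 416 CPM, also without overlap (0.58 ± 0.28). Without vehicle replicate 1 the log2 fold changes of Sv2b and Rab3c were 0.13 and 0.29, and that of Synj1 was 0.45 in place of 0.58. The groups of Sv2b and Rab3c lay apart, though neither difference passed the test. Slc17a8 was at 5.77 and 4.91 CPM against 0.455 and 5.60 CPM. Its log2 fold change of 0.81 ± 1.05 turned to -0.08 without vehicle replicate 1. Nrxn3 was at 172 and 234 CPM against 346 and 210.1 CPM, with a log2 fold change of -0.46 ± 0.32. The groups overlapped for Cplx2, Slc17a8 and Nrxn3. By role, the median log2 fold change was 0.14 for fusion proteins, 0.20 for synaptotagmins and 0.10 for vesicle proteins. It was 0.39 for the active zone, 0.32 for glutamate transporters and 0.18 for endocytosis, and it was -0.34 for the neurexins. The libraries of the groups did not overlap for 10 members in the higher direction (12.8% of tested genes) and for 2 in the lower (13.8%). Of the 52 other presynaptic genes tested, 37 were above 0, with a median of 0.09, and none was called by edgeR (1 had an unadjusted p under 0.05). General neuron markers were above 0 for 9 of 12, with a median of 0.14, and cortical glutamatergic markers for 7 of 11, with a median of 0.33. Markers of GABA neurons were above 0 for 3 of 10, with a median of -0.76. None of these markers was called by edgeR, and their part was not tested.

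**Figure D3:**
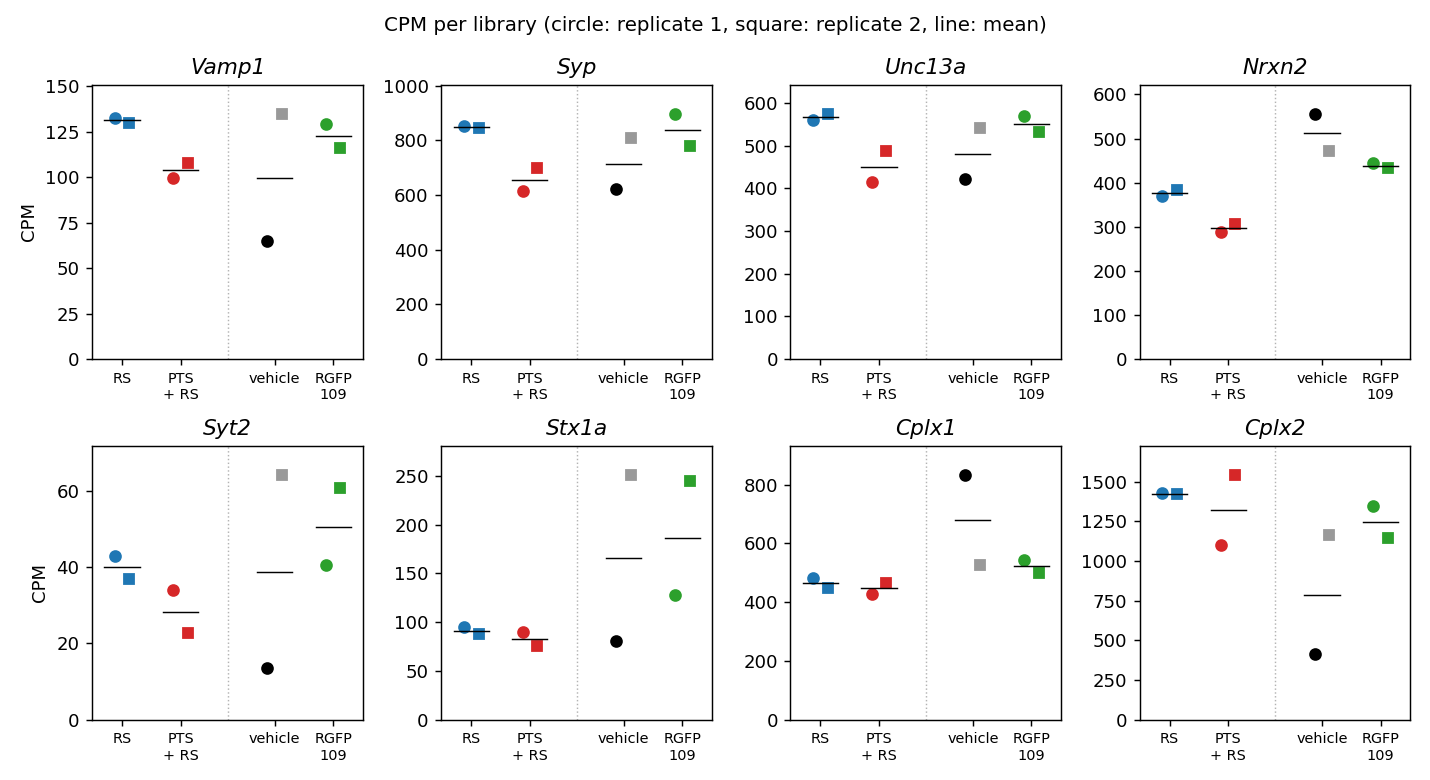
CPM of 8 presynaptic genes in each library, with circles for replicate 1, squares for replicate 2 and a line for the mean of each group (2 libraries); each axis starts at 0 and the dotted line parts the 2 separately scaled tables. Vehicle replicate 1 (black circle) is low for Vamp1, Syt2 and Cplx2 and high for Cplx1 and Nrxn2, and both amygdala-labelled squares are high for Stx1a.

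Within each replicate number, RGFP109 was set against vehicle from the same labelled tissue. With 1 library on each side these ratios have no replicate check. In replicate 1, cortex-labelled, the log2 ratios of the members ran from -1.32 (Sv2c) to 3.38 (Slc17a8), with a median of 0.49. In size, 23 of 37 were at least 0.5, against 36.3% of all tested genes. In replicate 2, amygdala-labelled, they ran from -0.21 (Vamp1) to 0.37 (Syn3), with a median of 0.03. There 0 of 37 were at least 0.5, against 13.0% of all tested genes. Cplx2 had a log2 ratio of 1.70 in replicate 1 and of -0.02 in replicate 2, Syn2 one of 0.96 and 0.03, and Nsf one of 0.93 and 0.10. Synj1 had ratios of 0.87 and 0.30, and Pclo had 0.57 and 0.34. Both belong to 12 members above 0 in both replicates beyond the counting interval, the others being Snap25, Nsf, Syt1, Syt4, Sv2b, Rab3c, Rims1, Unc13b, Bsn and Amph. By the same measure Cplx1, Slc17a6 and Nrxn2 were below 0 in both, 10 members had opposite signs, and for the remaining 12 at least 1 ratio lay within counting error. That measure leaves out the spread between libraries, and its counts over all tested genes were not made. By sign alone, 27 of 37 ratios were above 0 in replicate 1 (48.2% of tested genes) and 22 in replicate 2 (49.6%).

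**Figure D4:**
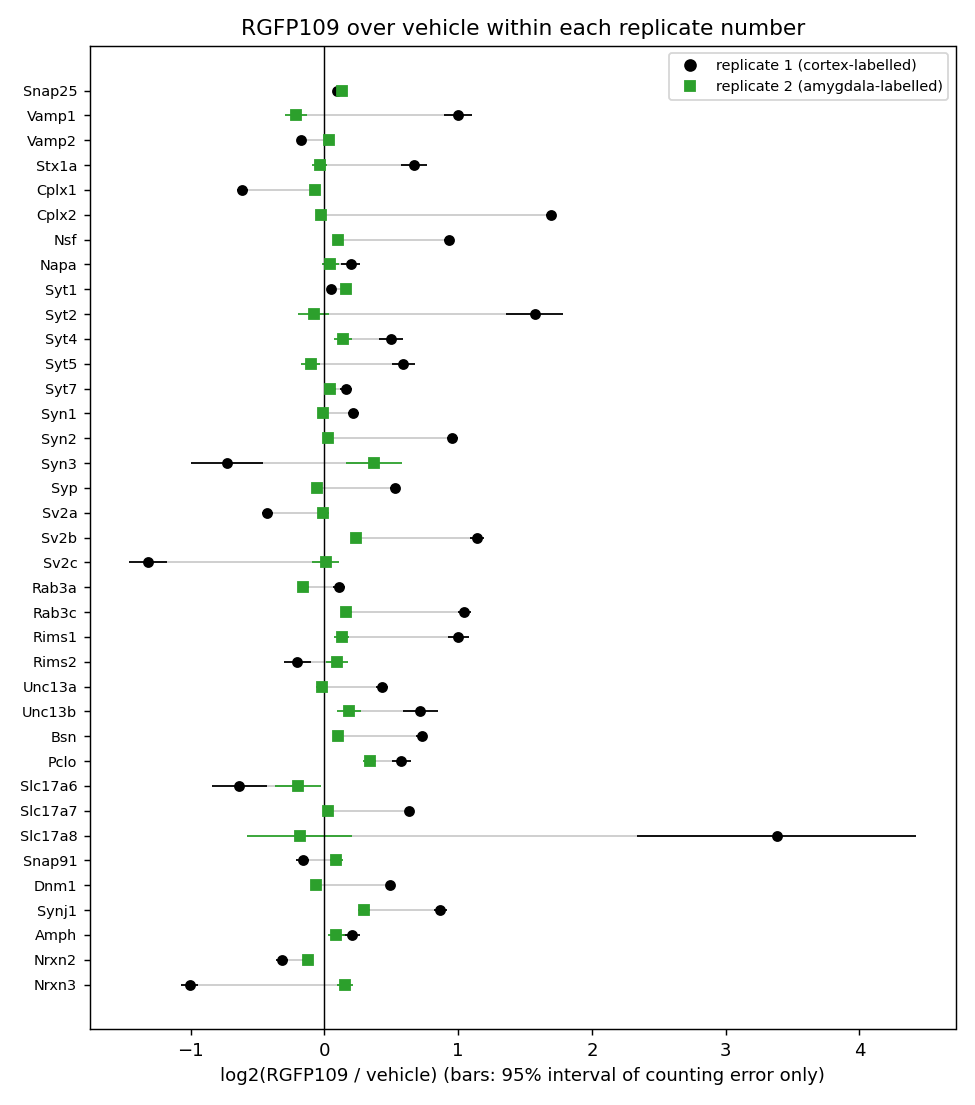
Log2 ratio of RGFP109 to vehicle for each gene within replicate 1 (black circles) and replicate 2 (green squares), with bars for the 95% interval of counting error only. Circles spread from -1.32 to 3.38, and all squares lie between -0.21 and 0.37.

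The same 4 libraries were compared by their labels, amygdala against cortex. Each label holds 1 RGFP109 and 1 vehicle library, and this fit had no term for treatment. By edgeR no member and no gene was called (0% of 17565 genes); at an unadjusted p under 0.05, 4 members were higher (6.81% of tested genes) and 0 lower (4.4%). DESeq2 called 1 member, Stx1a, among 314 genes higher (1.79%) and 102 lower, and limma-voom called 0. The log2 fold change was above 0 for 26 of 37 members, against 46.7% of tested genes, with a median of 0.10 against -0.03 over all tested genes. Stx1a was at 245 and 251 CPM in the amygdala-labelled libraries and at 128 and 80.3 CPM in the cortex-labelled ones. The groups did not overlap, and the log2 fold change was 1.25 ± 0.26 (fold 2.38, 95% interval 1.49 to 3.81), with an adjusted p of 0.290 by edgeR and 0.00545 by DESeq2. In the PTS + RS and RS libraries, scaled separately, Stx1a was between 75.3 and 94.6 CPM.

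The other 3 with an unadjusted p under 0.05 were Syt4, Pclo and Rims2. Pclo was at 383 and 303 CPM in the amygdala-labelled libraries and at 238 and 160 CPM in the cortex-labelled ones. The groups did not overlap, and the log2 fold change was 0.79 ± 0.26 with an adjusted p of 0.402 by edgeR. Syt4 had a log2 fold change of 0.64 ± 0.22 and Rims2 one of 0.38 ± 0.15, each without overlap. All 8 active zone genes were above 0, with a median of 0.28. The median was 0.38 for the synaptotagmins, 0.14 for the fusion proteins, 0.07 for the vesicle proteins and 0.13 for the glutamate transporters. It was below 0 for the endocytosis genes (-0.11) and the neurexins (-0.18). Syt2 was at 60.7 and 64.2 CPM against 40.5 and 13.5 CPM, a log2 fold change of 1.21 ± 0.52. Sv2b was at 645 and 549 CPM against 558 and 253 CPM and overlapped. Slc17a8 turned from 0.76 ± 1.03 to -0.13 without vehicle replicate 1, and Nrxn3 from -0.22 ± 0.36 to 0.38. Snap91 was at 376 and 353 CPM against 418 and 467 CPM, without overlap, with a log2 fold change of -0.28 ± 0.16. Over all members, 9 were higher without overlap (21.6% of tested genes) and 5 lower (22.4%).

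Which members were called turned on the cortex-labelled library that was left out. Without vehicle replicate 1, 7 members were called higher (8.21% of tested genes) and 3 lower (5.31%). The 7 were Stx1a, Syt2, Syt4, Syn3, Sv2c, Rims2 and Pclo, and the 3 were Nsf, Syn2 and Synj1. Without RGFP109 replicate 1, 19 were higher (15.2%) and 4 lower (13.2%). Both fits use the same amygdala-labelled pair, and in each the lone cortex-labelled library is assumed to vary like that pair. How many of all tested genes were called in both fits was not counted. Stx1a, Syt2, Syt4 and Pclo were higher in both, with Stx1a at 0.97 ± 0.14 and 1.63 ± 0.14. Nsf, Syn2 and Synj1 were lower in the first and higher in the second. The striatal markers and the microglia markers (642 and 754 CPM against 423 and 330.1 CPM) moved with this comparison. Of 12 oligodendrocyte markers, 11 were above 0, none called by edgeR and 8 at an unadjusted p under 0.05, with sums of 4727 and 5229 CPM against 3308 and 3310.1 CPM. Of 12 endothelial markers, 9 were below 0, none called by edgeR and 4 at an unadjusted p under 0.05, with sums of 294 and 282 CPM against 347 and 357 CPM. General neuron markers were above 0 for 10 of 12, with a median of 0.35, and cortical glutamatergic markers for 9 of 11, with a median of 0.65. Markers of GABA neurons were above 0 for 5 of 10, with a median of -0.20. None of these neuron markers was called by edgeR. The part of these cell types was not tested. Among the 52 other presynaptic genes tested, 28 were above 0, with a median of 0.03, and none was called by edgeR. At an unadjusted p under 0.05, 5 of them were higher and 2 lower.

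**Figure D5:**
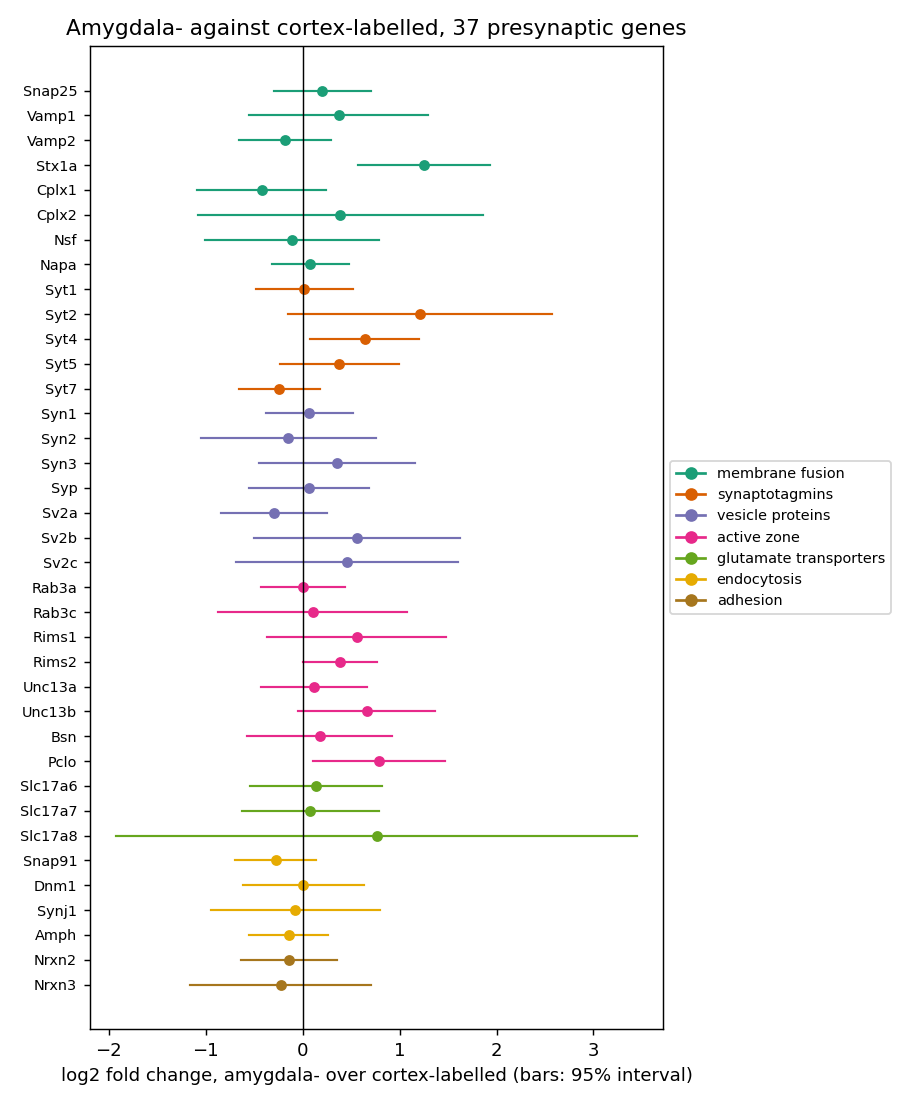
Log2 fold change of amygdala- over cortex-labelled libraries for the 37 genes, coloured by role, with points from the edgeR fit and bars for its 95% interval (2 libraries in each group). Stx1a is at 1.25 with a bar above 0, and the widest bar is that of Slc17a8.

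Counting could mix some members with a gene on the other strand. In GENCODE release M21, 14 of the 37 members have exons that overlap exons of another gene, and whether the counting used strand is not given in the sources used here. Syn3 shares 1733 exon bases with Timp3, a metalloproteinase inhibitor on the opposite strand. Syn3 had as few as 172 counts in a library and Timp3 as many as 1922, so the values of Syn3 are uncertain. Unc13a shares 495 bases with Colgalt1, Nrxn2 shares 682 with Slc22a12, and Syp shares 875 with Gm14703, which had at most 55 counts.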

How the data were processed

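The data are 8 RNA-seq libraries. Per the labels and the study's methods, the authors aligned reads to GRCm38 with STAR 2.4.0 and counted reads per gene with HTSeq 0.6.1. The deposited counts are raw whole numbers per gene, and the deposited FPKM values were made by the authors from these counts and the gene length. The labels name a NEBNext directional kit and the study's methods a Nugen Ovation kit, and the strand setting of the counting is not given in the sources used here. The deposited fold changes, p-values, group means and 8 columns of normalized per-library signal were not used.

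The 37 members were matched by symbol. Their roles, the marker lists and the wider presynaptic list were written with earlier results of these data known. In each role the member with the largest log2 fold change was named, and other members were named for an unadjusted p under 0.05 or for library content, chosen after their values were seen. Counts were analysed in R 4.3.3 with edgeR 4.0.16. Genes were filtered by filterByExpr, scaled by TMM and fitted by quasi-likelihood, and p-values were adjusted by Benjamini-Hochberg over all genes in the fit. Only the libraries of a comparison entered its fit. CPM values are counts scaled to the TMM library size. Log2 ratios of single libraries used a prior count of 2. Alternatives were DESeq2 1.42.0, limma-voom and limma-trend (limma 3.58.1), size factors of the DESeq2 type, no filter, log2(FPKM + 1) and log2(FPKM + 0.1), the replicate block, treatment as a covariate, and leaving out each library. Summaries and figures used pandas 2.3.3 and matplotlib 3.10.9 under Python 3.11.15. The fits were tested on simulated data. Counts differed between replicates by more than sampling noise, so the spread between libraries limits precision more than depth. Same-numbered libraries deviated together with a correlation of 0.04 for PTS + RS and RS and of 0.30 for RGFP109 and vehicle, where the number also marks the labelled tissue. Promoter windows came from RefSeq (GRCm38.p6), and exon overlaps from GENCODE release M21.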

Additional observations from a re-analysis of the deposited data

Results flagged for a closer look

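For 10 of the 37 members the single-library ratio of RGFP109 to vehicle went opposite ways in the cortex-labelled replicate 1 and the amygdala-labelled replicate 2, each beyond counting error. With 1 library per treatment and labelled tissue, the difference between the replicates was not tested. Counting error leaves out the spread between libraries, and the share of all tested genes with this pattern was not counted. Larger in replicate 1, the log2 ratios were 0.9951 against -0.214 for Vamp1 and 0.5906 against -0.1034 for Syt5. For Syp they were 0.5257 against -0.05611. For Dnm1 they were 0.4892 against -0.06341, and for Rab3a 0.1064 against -0.1573. Smaller in replicate 1, they were -1.009 against 0.1537 for Nrxn3 and -0.7283 against 0.3709 for Syn3. For Rims2 they were -0.2031 against 0.09427. For Vamp2 they were -0.1767 against 0.03211, and for Snap91 -0.1629 against 0.0879. Vehicle replicate 1 was the lowest or the highest of the 4 libraries for all of these but Syn3, Rab3a and Rims2.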

How the results depend on the processing

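The median log2 fold change of the members kept its sign in all alternatives but amygdala-labelled against cortex-labelled without vehicle replicate 1, where it was -0.03. Leaving out 1 library at a time moved it from -0.13 to -0.06 for PTS + RS against RS, from 0.02 to 0.39 for RGFP109 against vehicle and from -0.03 to 0.35 for the tissue labels.

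For PTS + RS against RS, genes called higher and lower numbered 521 and 103. Leaving out 1 library gave 202 to 1506 higher and 13 to 1360 lower, with 0 to 1 members higher and 0 to 11 lower. DESeq2 called 188 genes lower and 2 members lower. With no filter on low counts 1119 genes were higher and 716 lower, with 6 members lower. On log2(FPKM + 1) 304 were higher and 68 lower, and on log2(FPKM + 0.1) 314 were higher. The replicate block gave 228 genes lower. It called no member in PTS + RS against RS or in RGFP109 against vehicle, and the numbers do not pair the first of these. Leaving out 1 library moved Slc17a6 from -1.044 to 0.1152, above 0 without PTS + RS replicate 2.

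For RGFP109 against vehicle, leaving out 1 library gave 0 to 8 genes lower. Syt2 ranged from -0.3472 to 1.911 and Slc17a8 from -0.07675 to 3.539, each below 0 without vehicle replicate 1. For the tissue labels, DESeq2 called 314 genes higher and 102 lower, and 1 member higher. No filter gave 13 genes higher, and log2(FPKM + 1) and log2(FPKM + 0.1) gave 1 each. Leaving out 1 library gave 0 to 2662 genes higher, 0 to 2315 lower, 0 to 19 members higher and 0 to 4 lower. Slc17a8 ranged from -0.1252 to 3.509 and Nrxn3 from -0.6418 to 0.3799, each turned without vehicle replicate 1. Apart from the construction of these fits, the cause was not tested.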
